A study of Mus musculus with 6 samples.

Results

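The subunits of the phagocyte NADPH oxidase were followed as mRNA through the leukocytes of the inflamed mouse knee. The 5 genes are Cybb, Cyba, Ncf1, Ncf4 and Rac2, chosen by symbol, and all 5 were among the 20394 genes of the count table. Single-cell RNA sequencing had been run on 6 samples of CD45+ cells, sorted from digested joints and labelled as synovium. All mice were C57BL/6 with antigen-induced arthritis: each had received 10 μg methylated bovine serum albumin (mBSA) in complete Freund's adjuvant under the skin and, on day 21, 100 μg mBSA into the knee. From that day 2 samples came from mice given vehicle (PBS) and 4 from mice given 300 μg PEPITEM, a pegylated peptide, each into the peritoneum, and joints were taken 3 days after the challenge. The barcodes carry a library number from 1 to 6, and no source used here ties a number to a sample. Cells were therefore not split by treatment, vehicle and PEPITEM were not compared, and the 6 libraries are given as a spread and not as replicates of a group.

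The phagocyte oxidase passes electrons from NADPH across the membrane to oxygen and so makes superoxide, the first product of the respiratory burst. Cybb encodes the catalytic gp91phox chain (NOX2) and Cyba its p22phox partner, which together form the membrane cytochrome. Ncf1 (p47phox, the organiser) and Ncf4 (p40phox) wait in the cytosol and join the cytochrome with the small GTPase Rac2 when the cell is stimulated. The complex is best known from neutrophils and macrophages, where it serves killing of microbes, and it also acts in other leukocytes as a source of signalling oxidants. Rac1, the more widely expressed form of the GTPase, was measured beside the 5 genes.

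In the GENCODE annotation of GRCm38, Cybb lies on chromosome X, from 9435252 to 9487771 on the minus strand, and Cyba on chromosome 8, from 122424776 to 122432930 on the minus strand. Ncf1 lies on chromosome 5, from 134220053 to 134229625 on the minus strand. Ncf4, from 78244801 to 78262580 on the plus strand, and Rac2, from 78559167 to 78572783 on the minus strand, share chromosome 15 with 296586 bases between them. Cyba overlaps Gm20388 and Ncf1 overlaps Gtf2ird2, in each case on the opposite strand. Promoters were printed because Cybb and Ncf1 had the most similar pattern over cell classes of any pair of the 5 genes, as described below. RefSeq (GRCm38.p6) gave a promoter for 3 genes, each with 250 bases before the start site and 50 after it, written 5′ to 3′ along the transcript. The Cybb promoter is chrX:9469275-9469574, inside the longer GENCODE gene, the Cyba promoter chr8:122432891-122433190 and the Ncf1 promoter chr5:134229576-134229875, all on the minus strand. Capitals mark a match to GAGGAA or AGGAAGT, letters found in sites of the myeloid factor PU.1, searched on both strands.
Cybb: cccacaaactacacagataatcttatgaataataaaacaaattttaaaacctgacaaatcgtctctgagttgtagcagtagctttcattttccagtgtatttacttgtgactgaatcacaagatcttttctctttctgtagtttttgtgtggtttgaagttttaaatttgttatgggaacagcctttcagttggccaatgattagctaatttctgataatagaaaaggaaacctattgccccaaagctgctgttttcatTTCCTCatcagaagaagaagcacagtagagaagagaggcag
Cyba: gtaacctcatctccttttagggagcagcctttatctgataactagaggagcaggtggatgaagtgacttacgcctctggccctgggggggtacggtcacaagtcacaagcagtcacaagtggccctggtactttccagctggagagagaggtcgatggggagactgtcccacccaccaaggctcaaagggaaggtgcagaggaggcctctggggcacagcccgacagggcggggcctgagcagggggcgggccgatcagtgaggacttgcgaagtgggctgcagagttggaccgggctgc
Ncf1: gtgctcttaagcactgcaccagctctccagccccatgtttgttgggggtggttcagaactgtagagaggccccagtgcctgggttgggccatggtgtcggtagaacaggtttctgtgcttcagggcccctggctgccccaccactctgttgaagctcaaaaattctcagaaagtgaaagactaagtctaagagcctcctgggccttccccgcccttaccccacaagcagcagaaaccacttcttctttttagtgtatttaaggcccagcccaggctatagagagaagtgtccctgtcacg
The Cybb promoter held 1 match, GAGGAA read on the other strand, starting at base 10 after the start site. The Cyba and Ncf1 promoters held neither set of letters. GAGGAA was present in 28.3% and AGGAAGT in 9.35% of all 32851 promoters of that length, so a single match describes the sequence and is no evidence of binding.

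The table held 32953 cells, between 2919 and 9345 per library, with 47273569 to 123367661 UMIs (unique molecules counted) per library. Cells were placed in classes by lists of marker genes that contained none of the 5 subunits, and 26195 cells, 79.49%, received a class. A class name such as neutrophil-like states which markers a cell carried, and the cells were not sorted as that type. In each of the 18 classes with at least 50 cells, at least 2 of the 10 genes with the highest fold over the other cells were the class's own markers, and none was a marker of another class. The gate used these same markers, so this describes the classes and does not test them. The classes included 1957 B-precursor-like, 862 promyelocyte-like and 316 stem- and progenitor-like cells, which are types of the bone marrow, under the label of synovium. Neutrophil-like cells made up 11.89% to 43.66% of a library. The 10935 neutrophil-like cells were divided into 1239 cycling cells, 701 cells rich in granule mRNA, 6132 mature cells and 2863 intermediate cells. Of the barcode sequences, 138 occurred in more than 1 library. Levels are UMIs of the gene per 1000000 UMIs of the class (CPM) with 95% exact Poisson intervals, and shares of cells with at least 1 UMI carry 95% Wilson intervals. Both cover counting error only. Reads were counted from the 3′ end, so levels are compared between classes for 1 gene and not between genes.

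With all UMIs in the total, neutrophil-like cells held the highest level of 4 of the 5 subunits, with Ncf1 as the exception. Cybb, Cyba and Rac2 were highest in the granule-rich stage and Ncf4 in cycling cells, whereas Ncf1 was highest in plasmacytoid-dendritic-like cells. Library ranges were apart from the next class for Cybb and Ncf1 and overlapped it for Cyba, Ncf4 and Rac2. For Cyba the granule-rich range, 1537 to 1975 CPM, also overlapped that of inflammatory-macrophage-like cells, 1394 to 1961 CPM. Over all 12420 genes above 10 CPM in some class, 6.76% had their highest level in a neutrophil stage. The place of Ncf1 depended on the total. With 8 abundant granule and alarmin genes left out of it, as described below, Ncf1 was highest in granule-rich cells (1117 CPM), followed by intermediate cells (964.4 CPM) and plasmacytoid-dendritic-like cells (897.2 CPM). On that scale all 5 subunits were highest in a neutrophil stage, beside 15.1% of all genes. The 5 genes differed most in how far they spread beyond phagocytes. Cybb had the widest range of the 5, from 2262 CPM in granule-rich neutrophil-like cells to 2.46 CPM in NK-like cells. Ncf1 ranged from 892.5 to 5.21 CPM, Ncf4 from 378.8 to 5.03 CPM and Rac2 from 963.6 to 31.7 CPM. Cyba was the most even, from 1872 CPM to 139.6 CPM in stem- and progenitor-like cells.

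**Figure D1:**
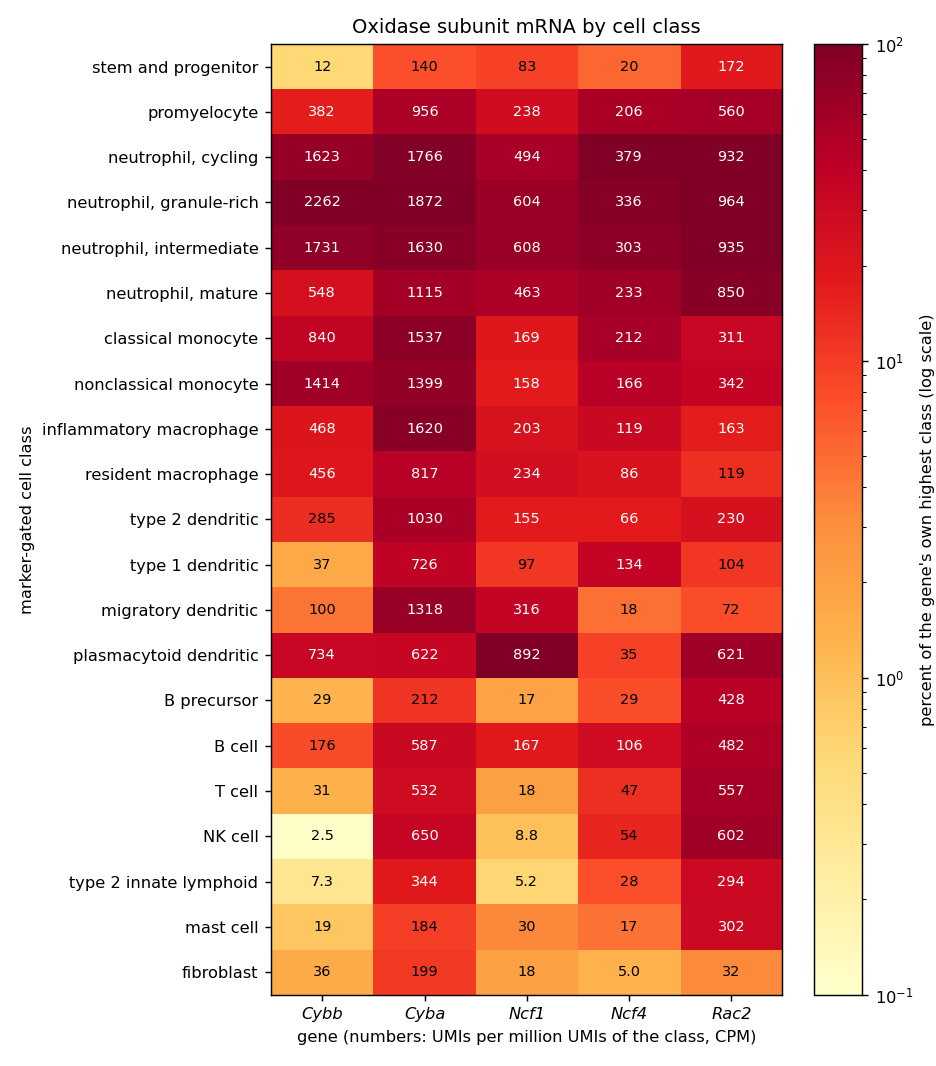
Levels of the 5 subunit genes in 21 marker-gated cell classes and neutrophil stages. Numbers are CPM over all cells of a class and colours give the percent of the gene's own highest class on a log scale. Cybb and Ncf1 are pale in the T, NK and innate lymphoid rows, where Cyba and Rac2 stay dark.

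Cybb, the catalytic chain, peaked in neutrophil-like cells rich in granule mRNA and was low again in mature ones. Granule-rich cells held 2262 CPM (interval 2230 to 2293), with 1928, 2387 and 2498 CPM in the lowest, median and highest library. Mature cells held 547.6 CPM (interval 540.9 to 554.5), with 336.9, 536.7 and 652.8 CPM. Every granule-rich library value thus lay above every mature one, and the ratio of the 2 stages was 4.13, between 3.45 and 5.72 within a library. Promyelocyte-like cells, precursors led by Mpo and Elane, held 382.5 CPM, 5.91-fold less than granule-rich cells. The 6 classical monocyte markers summed to 5311 CPM in them (4402 to 5758 over the libraries). That sum was 6228 CPM in classical-monocyte-like and 1123 CPM in neutrophil-like cells. The 9 neutrophil markers summed to 14260 CPM in promyelocyte-like cells, against 1935 CPM in classical-monocyte-like cells. Whether the class held precursors of monocytes as well was not tested. Of all genes tested, 39.9% had library ranges that did not overlap between the granule-rich and mature stages, 10.6% with the granule-rich stage higher. In that comparison 3 of the 5 subunits (Cybb, Cyba and Ncf4) did not overlap and were higher in the granule-rich stage, while Ncf1 and Rac2 overlapped. For promyelocyte-like against granule-rich cells the background was 63.9% of genes, 10.2% with the granule-rich stage higher. In CPM all 5 subunits were higher in the granule-rich stage without overlap. The median depths were 34362.5 and 12735 UMIs. Per cell, promyelocyte-like cells held more UMIs of Cyba (33.12 against 23.48), Ncf1 (8.244 against 7.581), Ncf4 (7.125 against 4.211) and Rac2 (19.38 against 12.08). Only Cybb was lower in them per cell, at 13.25 against 28.37 UMIs. Granule mRNA took up much of the total in granule-rich cells. With 8 abundant granule and alarmin genes left out of the totals, all genes moved by 0.49 on the log2 scale towards the granule-rich stage against the mature one. All 5 subunits were then higher in the granule-rich stage without overlap, beside 42.6% of genes, 26.3% with that stage higher. Cybb was then 5.8-fold and Rac2 1.59-fold higher. Rac2 differed least between stages, and its order turned with a stricter gate, at 979.3 CPM in intermediate and 972.6 CPM in granule-rich cells.

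The difference in Cybb was followed in 7 finer steps, chosen after the data were seen. Cells that were not cycling were ordered by the share of 6 granule-rich markers minus the share of 7 mature markers detected. At the granule-rich end, 229 cells with a difference over 0.4 held 2319 CPM of Cybb, between 1799 and 2875 CPM over the libraries. At the mature end, 2804 cells under -0.6 held 120.5 CPM, between 87.3 and 156.6 CPM. Cybb was thus 19.2-fold higher at the granule-rich end, and its level was lower at each step towards the mature end. How many of all genes separated the ends of these steps was not counted. The share of cells with a Cybb UMI went from 97.8% to 26.8%, in cells with median depths of 13128 and 4591.5 UMIs. Thinned to 2000 UMIs per cell, 97.53% of 648 granule-rich and 33.33% of 6031 mature cells had a Cybb UMI, beside 0.738% of 271 NK-like cells. Cells with fewer UMIs were left out of these shares. Unthinned, the shares were 97.43%, 50.8% and 2.198%, with median depths of 12735, 5481 and 8704 UMIs.

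Over the same steps the other subunits moved less. Cyba was 2.16-fold higher at the granule-rich end (1922 against 889.5 CPM), Ncf4 1.65-fold (337.9 against 204.6 CPM) and Ncf1 1.57-fold (602.8 against 383.2 CPM). For Ncf1 the library ranges at both ends overlapped (423.4 to 643.3 and 316 to 492.1 CPM), and for Cyba and Ncf4 they were apart. Rac2 stayed between 809.1 and 981.7 CPM in all 7 steps, and its library ranges at both ends overlapped. Rac1 went the other way, from 136 CPM (126.5 to 183.1 CPM over the libraries) at the granule-rich end to 275.6 CPM (238.5 to 303.1 CPM) at the mature end. Granule and alarmin mRNAs took a large part of the total in the early steps: the 6 granule-rich markers with S100a8 and S100a9 made up 47.1% of UMIs at the granule-rich end and 17.85% at the mature end. With these 8 genes left out of the total, the fold between the ends was 29.9 for Cybb, 3.36 for Cyba, 2.56 for Ncf4, 2.44 for Ncf1 and 1.78 for Rac2. Rac1 was 1.31-fold higher at the mature end on that scale. Between the whole granule-rich and mature stages, Rac1 stood at 147 and 246.6 CPM without overlap, but at 271.5 and 324.5 CPM with overlap when the 8 genes were left out.

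**Figure D2:**
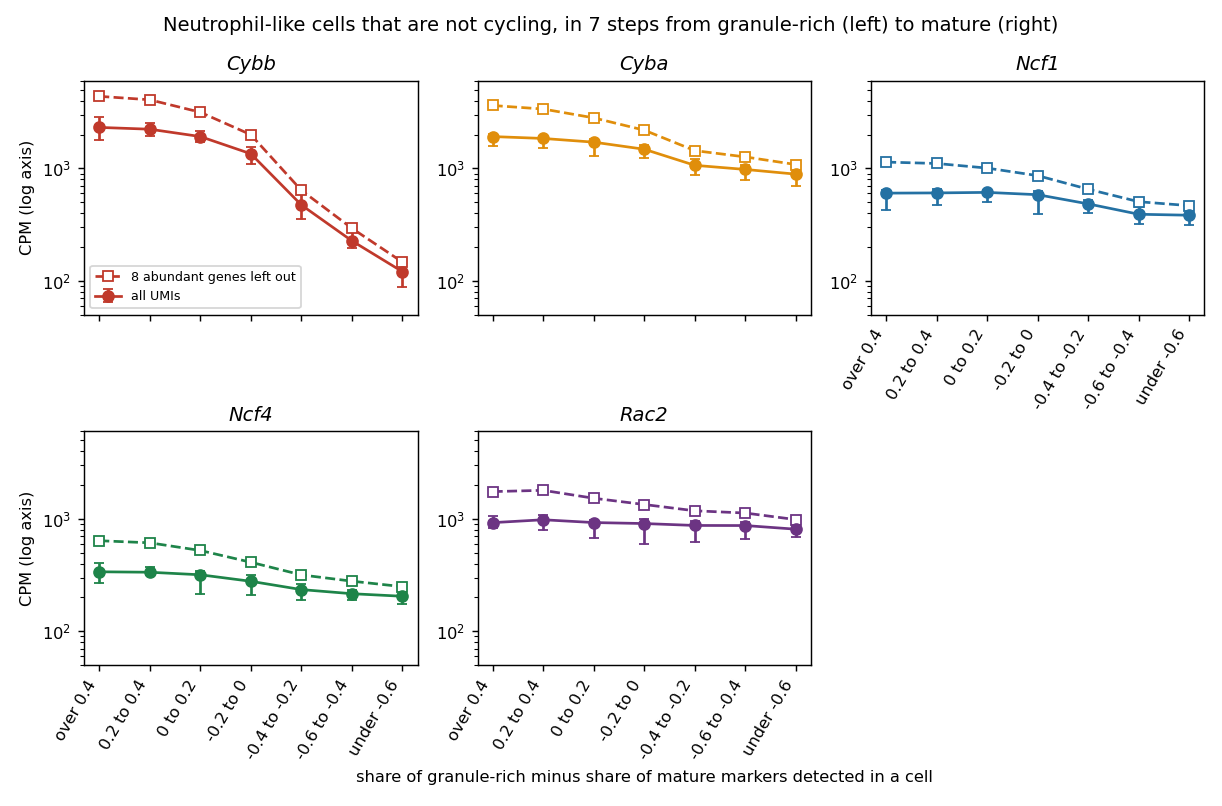
Levels in CPM (log axis) of the 5 subunit genes in neutrophil-like cells that are not cycling, in 7 steps of the share of granule-rich minus mature markers. Filled points use all UMIs with bars from the lowest to the highest library, and open squares leave 8 abundant granule and alarmin genes out of the total. Cybb goes from 2319 to 120.5 CPM and Rac2 from 925.5 to 809.1 CPM.

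Immunoglobulin genes led the granule-rich stage, with 773 CPM of Igkc against 18.4 CPM in mature cells. The 7 plasma cell markers summed to 119.2 CPM in granule-rich cells (332.3 CPM in library 5, 0 to 8.46 CPM in the others, Tnfrsf17 at 0) and to 17.15 CPM in mature cells (12.57 to 33.3 CPM), and 4 of the 7 were higher in granule-rich cells. In the 560 granule-rich cells without a UMI of Igkc, Ighm or Jchain, Cybb stood at 2254 CPM and Cyba at 1892 CPM. The same filter left mature cells at 512.9 CPM of Cybb. Leaving out any 1 library kept Cybb between 2151 and 2338 CPM in granule-rich cells.

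Unsupervised clusters gave a second view of the same cells. Of the 9 clusters with at least 200 neutrophil-like cells, 1 of 1768 cells with 38280 CPM of Camp and 104.2 CPM of Cxcr2 had the highest Cybb, 2239 CPM. In the 4 clusters made mostly of mature cells, Cybb ranged from 73.3 to 514.7 CPM, a 7.02-fold spread. The lowest was a cluster of 1401 cells with the most Il1b, 11030 CPM, in which 14.7% of cells held a Cybb UMI. Across those 4 clusters the other subunits spread less: 1.38-fold for Cyba, 1.36-fold for Ncf1, 1.29-fold for Ncf4 and 1.39-fold for Rac2. Clustering used the expression of these same cells, so this is a description.

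Set against classical-monocyte-like cells, neutrophil-like cells of all stages had more Ncf1 and Rac2. Ncf1 stood at 526.7 CPM (433.7 to 562.9 over the libraries) against 168.7 CPM (136 to 189.6), a ratio of 3.12. Rac2 stood at 907 CPM (676.7 to 972.6) against 310.9 CPM (228.4 to 359.5), a ratio of 2.92. The gap was smaller for Cybb, at 1334 against 839.8 CPM, and for Ncf4, at 302.5 against 211.9 CPM. The Ncf4 ranges, 236 to 331 and 198.5 to 235.6 CPM, nearly touched. These 4 genes did not overlap between the classes over the libraries, beside a background of 69.0% of all genes, 11.0% with neutrophil-like cells higher. The median depths were 8188 and 17283 UMIs. Per cell, Ncf1 (6.45 against 3.228 UMIs) and Rac2 (11.11 against 5.951) kept their order. Cybb was near level per cell (16.34 against 16.07 UMIs), while Ncf4 (3.704 against 4.055) and Cyba (18.48 against 29.42) were lower in neutrophil-like cells. With the 8 abundant genes left out, all genes moved by 0.583 on the log2 scale towards neutrophil-like cells, the background became 57.2%, 20.0% with neutrophil-like cells higher, and the same count of 4 did not overlap. Cyba stood at 1509 and 1537 CPM with overlap, and was higher in neutrophil-like cells in 1 of 6 libraries. Its direction turned with the total, to 2289 against 1556 CPM without the 8 genes, again with overlap. The order for Cybb turned in the mature stage, with 547.6 CPM (336.9 to 652.8) against 839.8 CPM (685.4 to 937.2) in classical-monocyte-like cells. With the 8 genes left out it was 720.5 CPM (434.6 to 846.6) against 850.2 CPM (695.2 to 949.3), with overlap. The share of all genes that separated this pair was not counted.

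Among mononuclear phagocytes, Cybb was highest in the 145 nonclassical-monocyte-like cells, the patrolling type marked by Ace and Cd300e. They held 1414 CPM (interval 1350 to 1480), from 1208 to 1800 CPM over the libraries. The classical type held 839.8 CPM (685.4 to 937.2). Nonclassical against classical, Ncf1 was 158.1 and 168.7 CPM, Ncf4 165.8 and 211.9 CPM and Rac2 342.5 and 310.9 CPM. The share of all genes that separated this pair was not counted. The 9 neutrophil markers summed to 3277 CPM in the nonclassical class (731.2 to 7738 over the libraries). In the classical class they summed to 1935 CPM (1042 to 2235). The part of neutrophil mRNA in these levels was not tested. Inflammatory-macrophage-like cells, marked by Arg1, Spp1 and Gpnmb, had 1620 CPM of Cyba against 1537 CPM in classical-monocyte-like cells, higher in 6 of 6 libraries with overlapping ranges. They had less Rac2, 163 against 310.9 CPM, and less Ncf4, 119.2 against 211.9 CPM, both without overlap. That made 2 of 5 subunits, beside a background of 13% of genes (1058 of 8133). Cybb was lower in them in all 6 libraries, 467.5 against 839.8 CPM, but their highest library, 694.1 CPM, reached into the classical range. The 9 clusters of classical-monocyte-like cells spread from 416.7 to 1169 CPM of Cybb, so the class was not uniform. The clusters with 620 and 472 of these cells also held 107 and 190 inflammatory-macrophage-like cells. The former cluster was mixed and held 390 neutrophil-like cells as well. Within both clusters, inflammatory against classical, Rac2 was 229 against 282.9 CPM and 112.4 against 136.3 CPM. Ncf4 was 136.8 against 186.7 CPM and 107 against 150 CPM, so both gaps were smaller there.

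Inflammatory- and resident-macrophage-like cells, the latter marked by Lyve1 and Cd163, differed in Cyba. The inflammatory class held 1620 CPM (1394 to 1961 over the libraries) and the resident class 817.4 CPM (751.1 to 1106), a ratio of 1.98. Ncf4 (119.2 against 85.7 CPM) and Rac2 (163 against 118.8 CPM) were also higher in the inflammatory class without overlap. These were 3 of 5 subunits, beside 22.9% of genes. Cybb (467.5 and 456.2 CPM) and Ncf1 (203.2 and 233.9 CPM) overlapped. In both macrophage classes every subunit was found in more than 50% of cells, with 55.4% for Rac2 in the resident class as the lowest share, beside 15.2% in fibroblast-like cells, at median depths of 12218 and 14513 UMIs.

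Rac2 and Rac1, the alternative GTPases, stood in different ratios in different lineages. Both genes are read in the same cells, so their ratio does not depend on the total and can be compared between classes. Rac2 gave 6.56 UMIs per Rac1 UMI in granule-rich neutrophil-like cells, between 5.59 and 6.97 over the libraries. The ratio was 3.44 in mature neutrophil-like cells, 0.742 in classical-monocyte-like cells, 0.461 in inflammatory- and 0.352 in resident-macrophage-like cells. The highest resident library, 0.406, lay just above the lowest inflammatory one, 0.397. Among lymphoid classes it was 4.18 in B-cell-like, 2.95 in NK-like, 2.68 in B-precursor-like, 2.57 in T-cell-like and 1.69 in type-2-innate-lymphoid-like cells (1.15 to 2.14 over the libraries). Plasmacytoid-dendritic-like cells reached 4.77, and fibroblast-like cells had the lowest ratio, 0.201.

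**Figure D3:**
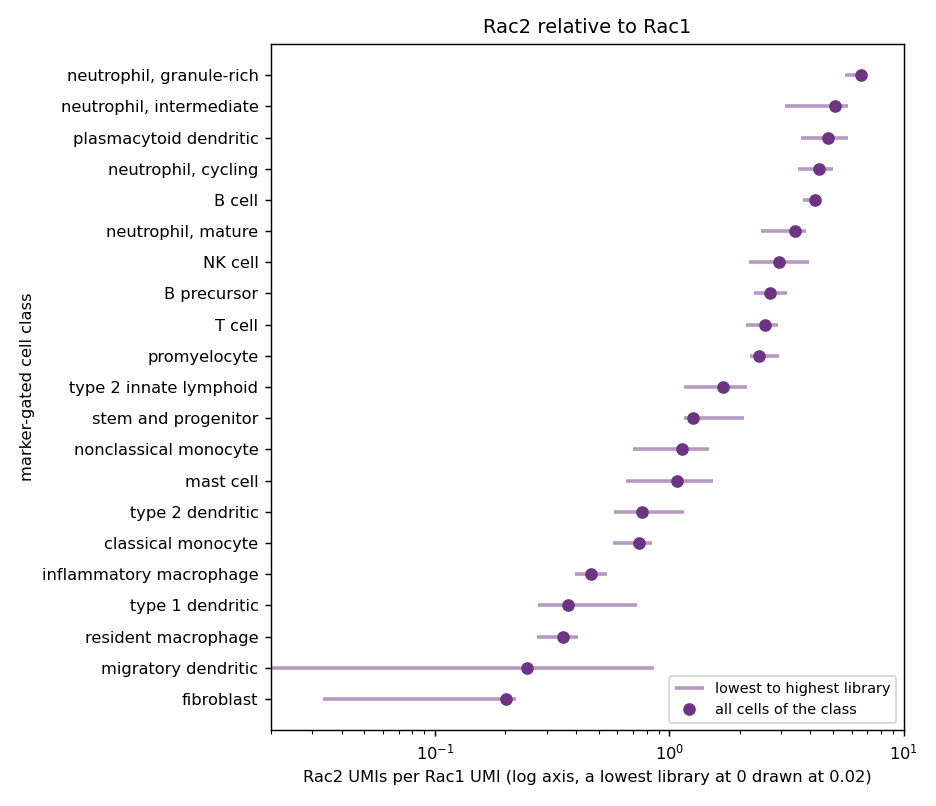
UMIs of Rac2 per UMI of Rac1 (log axis) in 21 cell classes and neutrophil stages. Points pool all cells of a class and lines run from the lowest to the highest library. Granule-rich neutrophil-like cells stand at 6.56, and resident-macrophage-like cells at 0.352.

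The 371 plasmacytoid-dendritic-like cells, the interferon-producing type marked by Siglech, held much Ncf1 and Cybb but little Ncf4, each beside the same gene in other classes. Ncf1 was 892.5 CPM (interval 864.6 to 921.1), with 675.7, 889.1 and 1031 CPM in the lowest, median and highest library. With all UMIs in the total, every library lay above the 639 CPM that was the highest value of the next class, intermediate neutrophil-like cells. With the 8 abundant genes left out the order turned, to 897.2 CPM against 964.4 CPM in intermediate cells, and the library ranges overlapped (675.7 to 1031 CPM and 677.2 to 1052 CPM). Cybb was 733.7 CPM and Rac2 621.4 CPM. Ncf4 was only 34.9 CPM, 10.9-fold below its highest class. Thinned to 2000 UMIs, 73.05% of these cells had an Ncf1 UMI, against 1.845% of NK-like cells, and 5.93% had an Ncf4 UMI, against 9.225% of NK-like cells. Their Ncf4 share was thus no higher than that of NK-like cells. Unthinned, the shares were 97.84% and 6.96% for Ncf1 and 27.22% and 39.19% for Ncf4, at median depths of 11310 and 8704 UMIs. The 9 neutrophil markers summed to 1253 CPM in these cells, with 4044 and 3539 CPM in libraries 4 and 5 and at most 48.3 CPM in the others. Neutrophil-like cells of any library held 48600 CPM or more. Libraries 4 and 5 also had the most Ncf4 in plasmacytoid-dendritic-like cells, 59.5 and 49.3 CPM against at most 30.6 CPM. The same held for Cyba, at 769.5 and 809.2 CPM against at most 676.2 CPM. Cybb, Ncf1 and Rac2 were highest in other libraries. The part of neutrophil mRNA in these levels was not tested.

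Type-2-dendritic-like cells, marked by Cd209a, had all 5, with 285.3 CPM of Cybb and 65.8 CPM of Ncf4. Type-1-dendritic-like cells, the Clec9a and Xcr1 type, held 134 CPM of Ncf4 (interval 117.4 to 152.2), 35.4% of that gene's highest class. They held 37.1 CPM of Cybb, 1.64% of its highest class. Library 5 gave 178.1 CPM of that Cybb and the other libraries at most 27.7 CPM, and the class stood at 16.9 CPM without it. The 9 neutrophil markers summed to 803.7 CPM in the 12 cells of library 5 and to 222.8 CPM in the other 63 cells, with Ngp, Cd177, Ltf and Camp at 0 in the class. Over those other libraries the sum ran from 0 (library 6) to 610.2 CPM (library 1), with Cybb at 16.9 and 17.4 CPM. The part of these neutrophil mRNAs in the Cybb level was not tested. Migratory-dendritic-like cells, marked by Ccr7 and Fscn1, held 315.9 CPM of Ncf1, 1318 CPM of Cyba and 17.9 CPM of Ncf4. These were 35.4%, 70.4% and 4.72% of each gene's own highest class. Their Cybb was 99.9 CPM with all libraries and 40.1 CPM without library 5, whose 13 cells carried 10660 CPM of neutrophil markers against 5.87 CPM in the other 60 cells. Their Rac2 of 72.3 CPM and Ncf4 likewise became 44.1 and 11.8 CPM without that library, while Ncf1 was 322.1 CPM, and again the part of neutrophil mRNA was not tested. With 75 and 73 cells, these classes were the smallest that were ranked. Another granulocyte stood out among classes too small to rank: 37 basophil-like cells held 816.4 CPM of Ncf1 (interval 711.7 to 932.3) and 44.9 CPM of Cybb. Only 3 libraries had enough of them for a value, with 514.5 to 1018 CPM of Ncf1 and 0 to 118.7 CPM of Cybb.

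In the B lineage, 4 of 5 subunits were higher in B-cell-like than in B-precursor-like cells without overlap over the libraries, beside a background of 37.5% of genes, 14.2% with B-cell-like cells higher. Ncf1 showed the largest ratio, with 167.3 CPM (140.7 to 183.7 over the libraries) against 17 CPM (9.45 to 19.5), 9.85-fold. Cybb stood at 175.9 CPM (163.4 to 203.8) against 29.2 CPM (7.74 to 70.6), 6.03-fold. The ratio was 3.65 for Ncf4 and 2.77 for Cyba. Rac2, at 482.1 against 428.1 CPM, overlapped and was higher in precursors in 1 of 6 libraries. The highest precursor value of Cybb, 70.6 CPM, came from library 1, where the 9 neutrophil markers summed to 2345 CPM in precursors, against 19.8 CPM in library 4 with the lowest Cybb. Over all cells that sum was 495.2 CPM in precursors and 557.1 CPM in B-cell-like cells, and 4 of 9 markers were higher in precursors. Their part in the precursors' Cybb was not tested. Thinned to 2000 UMIs, 24.44% of B-cell-like and 2.99% of precursor cells had an Ncf1 UMI, against 52.02% and 8.533% unthinned at median depths of 5815.5 and 6207 UMIs.

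T-cell-like, NK-like and type-2-innate-lymphoid-like cells carried Cyba and Rac2 with little of the catalytic chain. NK-like cells held 601.8 CPM of Rac2 (556.1 to 724.1 over the libraries) and 650.3 CPM of Cyba. Their 273 cells gave 7 UMIs of Cybb, 2.46 CPM with an interval of 0.989 to 5.07, and 25 UMIs of Ncf1, 8.79 CPM. Of T-cell-like cells thinned to 2000 UMIs, 71.91% had Cyba or Rac2 without Cybb, Ncf1 or Ncf4, and of NK-like cells 75.65%. The same share was 61.39% of B-precursor-, 50.67% of type-1-dendritic-, 40.52% of B-cell- and 20.43% of mature neutrophil-like cells. It depends on depth, as 8.448% of thinned T-cell-like cells had an Ncf4 UMI against 30.47% unthinned. For NK-like cells these shares were 9.225% and 39.19%. Ncf4 stood at 46.7 CPM in T-cell-like and 54.5 CPM in NK-like cells. T-cell-like cells had 30.9 CPM of Cybb, higher than NK-like cells in all 6 libraries without overlap, the only 1 of the 5 to separate beside 10.8% of genes. Without library 5 it was 26.5 CPM in T-cell-like and 2.48 CPM in NK-like cells. The 2 main clusters of T-cell-like cells differed in it. The cluster of 461 cells led by Tnfrsf4, Il1r1 and Il17a held 46.4 CPM, and the cluster of 554 cells led by Xcl1, Klra7 and Ccl5 held 2.45 CPM. The 10 leading genes of the latter, by fold over all T-cell-like cells, held 2 NK cell markers, Klre1 and Gzma. Xcl1 and Ccl5 also led the NK-like class. No T cell marker was among the 10 leading genes of either cluster. All these cells were gated by T cell markers, so such markers could hardly lead in the former or the latter cluster. The 9 neutrophil markers summed to 174.5 CPM in the former and to 5.38 CPM in the latter, and the 6 classical monocyte markers to 467.8 and 1277 CPM. The former cluster was also led by H2-Ab1, Cd74 and Il1b, genes of antigen-presenting cells and phagocytes. Over whole classes the neutrophil markers summed to 264.4 CPM in T-cell-like (14.36 to 1256 CPM over the libraries) and to 126.9 CPM in NK-like cells (4.25 to 914.5 CPM, with Camp at 0), and 8 of the 9 were higher in T-cell-like cells. The 6 classical monocyte markers summed to 978.4 CPM (719.1 to 1194 CPM) and 601.5 CPM (356.8 to 777.2 CPM), none at 0, and 5 of the 6 were higher in T-cell-like cells. The part of either list in the difference was not tested.

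**Figure D4:**
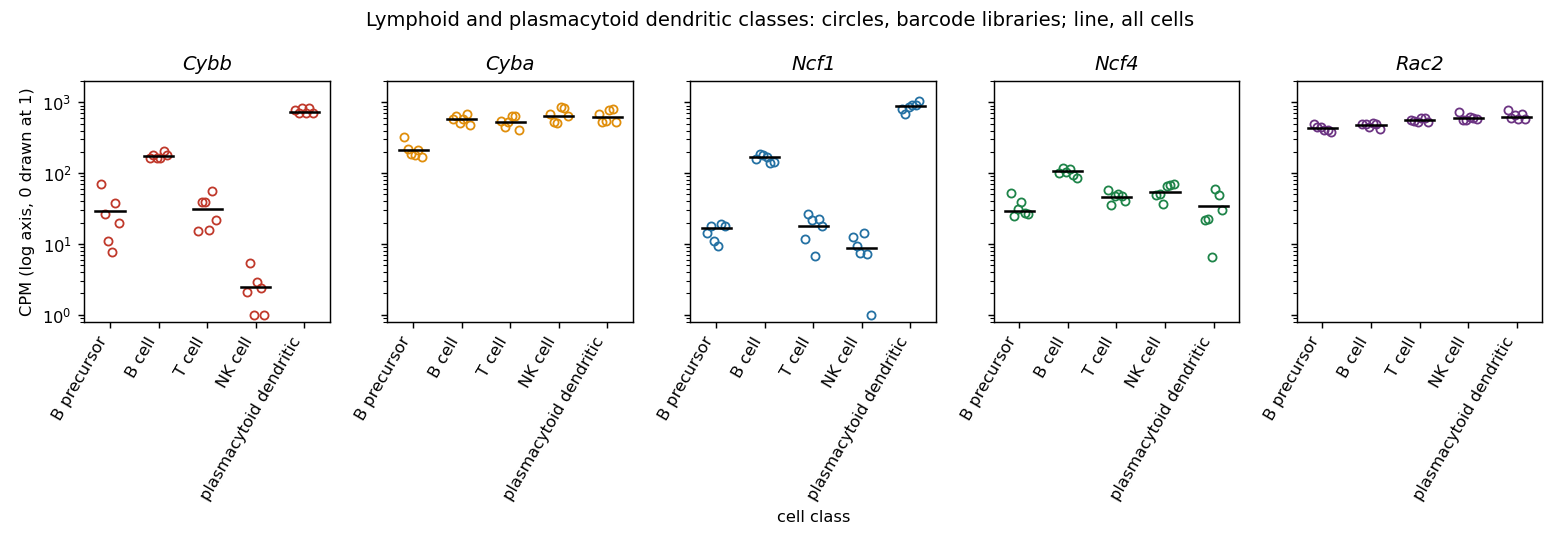
Levels in CPM (log axis, 0 drawn at 1) of the 5 subunit genes in B-precursor-, B-cell-, T-cell-, NK- and plasmacytoid-dendritic-like cells. Circles are barcode libraries of unknown treatment and lines pool all cells. Cybb and Ncf1 separate precursors from B-cell-like cells, while Rac2 stays near 428.1 to 621.4 CPM in all 5 classes.

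Detection of the whole set in 1 cell was counted at a fixed and at the full depth. After thinning to 2000 UMIs, all 5 genes were seen together in 27.07% of cycling, 26.08% of granule-rich and 22.43% of intermediate neutrophil-like cells. The share was 5.47% of mature neutrophil-like and 3.04% of classical-monocyte-like cells. It was 5.82% of promyelocyte-like and 5.59% of nonclassical-monocyte-like cells. It was 0 in 7 classes: type-1-, type-2- and migratory-dendritic-like, NK-, type-2-innate-lymphoid-, mast- and fibroblast-like cells. For NK-like cells that was 0 of 271. The limit set for a count of 0 here was 3 counts of that total, 1.11%, and not a Wilson interval. Thinning left out 200 neutrophil-like cells with fewer UMIs. Unthinned, all 5 were seen in 98.14% of cycling, 86.59% of granule-rich and 35.5% of mature neutrophil-like cells, and in 60.34% of neutrophil-like cells of all stages. At full depth the share was 82.37% of promyelocyte-, 72.28% of classical-monocyte- and 0.366% of NK-like cells. Fibroblast-like cells, which are not leukocytes, had none of the 5 in 72.58% of thinned and 19.2% of unthinned cells.

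**Figure D5:**
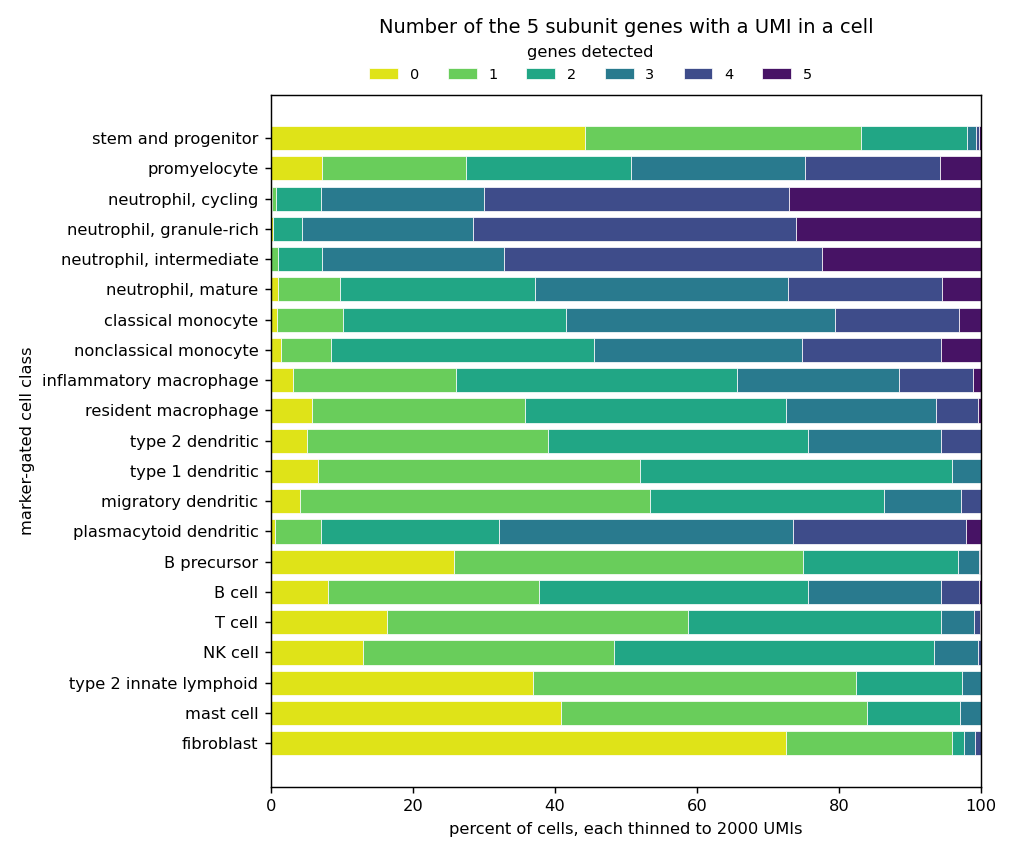
Number of the 5 subunit genes with at least 1 UMI in a cell, as percent of cells of each class, with each cell thinned to 2000 UMIs. The dark end, all 5 genes, reaches 27.07% in cycling neutrophil-like cells, and the light end, no gene, 72.58% in fibroblast-like cells.

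The other genes of the pathway were taken from a list of 29 genes found in the table. Arhgdib, which encodes a GDP-dissociation inhibitor that holds Rac in the cytosol, was the 1 of 29 with its highest level in a neutrophil stage, at 3143 CPM. That count stood beside 6.76% of all genes. With the 8 abundant genes left out it was again 1 of 29, beside 15.1%. Other NADPH oxidases and their partners were nearly silent: 6 of 7 stayed under 10 CPM in every ranked class, and Nox4 reached 85.5 CPM in fibroblast-like cells. Over the whole table, 12420 of 20394 genes were above 10 CPM in some ranked class. In granule-rich neutrophil-like cells Nox4, Noxa1, Duox1, Duox2 and Duoxa1 were at 0 UMIs, with an upper bound of 0.42 CPM. Between granule-rich and mature neutrophil-like cells, 20 list genes were above 10 CPM, of which 2 were higher in the granule-rich stage, 11 higher in the mature stage and 7 overlapped. All genes had 29.3% higher in the mature stage. The count depended on the total: with the 8 abundant genes left out, 6 were higher in the granule-rich stage, 4 in the mature stage and 10 overlapped, beside 26.3% and 16.2% of all genes. The 2 were Arhgdib, 3143 against 1413 CPM, and Hvcn1, the voltage-gated proton channel, 60.7 against 10.8 CPM. On both scales Dock2 and Prex1, exchange factors for Rac, were higher in the mature stage, at 672.1 against 336.2 CPM and 104.8 against 35.4 CPM. So were the kinases Prkcd (160.2 against 84.1 CPM) and Pak1 (115.6 against 38.8 CPM). Against classical-monocyte-like cells, 3 of 21 list genes were higher in neutrophil-like cells and 11 lower, with 58.0% of all genes lower, and 5 and 5 without the 8 genes, with 37.3% of all genes lower. Sod1, which removes superoxide, stood at 19.5 against 145.2 CPM. Mpo, which uses hydrogen peroxide, stood at 4915 CPM in promyelocyte-like and 1.02 CPM in granule-rich cells. From promyelocyte-like to granule-rich cells, 2 of 22 list genes were higher in the latter and 12 lower, beside 10.2% and 53.8% of all genes. Without the 8 genes this turned to 9 and 4, beside 21.7% and 35.4% of all genes. Classical-monocyte-like cells had 3 of 21 higher and 1 lower than inflammatory-macrophage-like cells, beside 6.58% and 6.43% of all genes. The latter had 4 of 21 higher and 5 lower than resident ones, beside 7.44% and 15.5%. Of 21 list genes in the B lineage 3 were higher in B-cell-like cells and 7 in precursors, beside 14.2% and 23.3% of all genes. Hvcn1 was among the 3, with 359.9 CPM in B-cell-like and 102.7 CPM in precursor cells. In T-cell-like cells 2 of 21 were higher than in NK-like cells, beside 6.22% of all genes.

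The subunits did not share one pattern over the 21 classes and stages. The Pearson correlation of log2(CPM + 1) was 0.873 between Cybb and Ncf1, 0.804 between Cyba and Ncf4, and 0.773 between Cybb and Cyba. For Rac2 it was 0.351 with Cybb, 0.281 with Ncf1 and 0.632 with Ncf4. Of the 12420 genes compared, those most like Cybb included Aldh3b1 (0.944), Cib2 (0.922), Ceacam1 (0.911) and Igsf6 (0.896). Those most like Cyba were Gnai2, Arpc1b, Rhog, Slfn2 and Tmsb4x, from 0.916 to 0.86. Msmo1, Clec12a, Cybb and B4galt3 were among those most like Ncf1, from 0.884 to 0.861. Cdk2ap2, Gpsm3, AB124611, Ndufaf7 and Gm21975 were most like Ncf4, from 0.885 to 0.859. Lbr, Map4k2, Arhgap4, Arhgdib and Tsc22d4 were most like Rac2, from 0.871 to 0.85. The classes share libraries and differ in depth, and these values describe likeness only.

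Over all cells of a library, Cybb ranged from 579.4 to 920.6 CPM. Within the neutrophil-like class the libraries ranged from 1084 to 1505 CPM for Cybb, 1199 to 1645 CPM for Cyba, 433.7 to 562.9 CPM for Ncf1, 236 to 331 CPM for Ncf4 and 676.7 to 972.6 CPM for Rac2.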

How the data were processed

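Single-cell 3′ libraries of CD45+ synovial cells from 6 samples (2 PBS, 4 PEPITEM) had been aligned to mm10 with Cell Ranger 7 and cleared by the authors of ambient RNA (SoupX), of doublets (DoubletFinder) and of low-quality cells (Seurat). The authors deposited whole UMI counts, not scaled for depth, in one matrix of 20394 genes and 32953 cells. It holds 1724738 entries written as 0, read here as 0. Over all cells the largest share of such entries for a subunit was 2.51% (Cybb), but within classes low in Cybb it was 77.14% (stem- and progenitor-like), 60.0% (NK-like) and 45.1% (T-cell-like). Counting them as detected moved 4 of 105 shares of cells by over 1.5-fold. Removal of ambient RNA lowers small counts by an estimate, so values near 0 depend on it. No further doublet caller was run.

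Each cell was given the class with the largest share of its markers detected, if at least 3 were detected and the share led the next class by 0.15. Neutrophil-like cells with at least 3 of the cell cycle genes were called cycling, and the others granule-rich or mature where 1 marker share led the other by 0.15, else intermediate. A library value needed 5 cells and a ranked class 50 cells. In pairs of classes, a gene above 10 CPM in either counted as separate when its library ranges did not overlap. No p-value was computed. Named genes were the subunits, a pathway list and the 5 genes most correlated with each subunit. Some of these are not reported here. The members and all lists were chosen with earlier results of these data known. Tools were Python 3.11.15, scipy 1.17.1 and scanpy 1.11.5, and scripts were tested on simulated data. Leiden clusters (2000 variable genes, 30 components, 15 neighbours, resolution 1) served as an alternative to the gate. The comparison of PBS and PEPITEM was not run, since the barcodes are not tied to samples in the sources used here.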

Additional observations from a re-analysis of the deposited data

How the results depend on the processing

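No paired analysis was possible because no source used here ties the barcode libraries to the replicate numbers of the samples, and the tests of PBS against PEPITEM were not run for the same reason. Levels in neutrophil-like cells of all stages were 1334 CPM for Cybb, 1509 for Cyba, 526.7 for Ncf1, 302.5 for Ncf4 and 907 for Rac2. From Leiden clusters the CPM was 1361 for Cybb, 1537 for Cyba, 535.1 for Ncf1, 318.7 for Ncf4 and 951.5 for Rac2. With a stricter gate it was 1409, 1529, 550.5, 310.1 and 953.7, as the median of the libraries 1231, 1398, 504.4, 276.1 and 873.5, and as the mean over cells 967.2, 1297, 510.2, 269.8 and 899.4, in the same order of genes. Leaving out 1 library at a time gave 1271 to 1366, 1438 to 1532, 518.5 to 538.5, 287.6 to 308.6 and 881.9 to 936.4. Shares of neutrophil-like cells with a UMI depended on depth. They were 71.86%, 97.11%, 88.28%, 78.77% and 96.37% in the same order. Thinned to 2000 UMIs they were 59.36%, 88.46%, 59.54%, 40.2% and 81.17%, and at 2 or more UMIs 63.94%, 92.91%, 75.95%, 59.85% and 91.22%. Counting entries stored as 0 gave 72.88% for Cybb and 97.48% for Cyba. Leaving out 1 library gave 71.01% to 72.9%, 96.88% to 97.22%, 87.97% to 88.52%, 78.25% to 79.1% and 96.05% to 96.61%.

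Mature neutrophil-like cells held 289.6 CPM of Cybb by clusters and 340.7 CPM as a mean over cells, below 547.6 CPM. Leaving 8 abundant genes out of the total, chosen after seeing the data, raised all 20 stage levels, 15 of them by over 1.5-fold. That rise is fixed by the smaller total, since the 8 genes held 23.99% (mature) to 45.87% (granule-rich) of a stage's UMIs. Leaving them out turned the balance of the pathway list between stages, as given above. Among the subunits it turned Cyba between neutrophil- and classical-monocyte-like cells, of the 3 class comparisons run with it, and moved the highest class of Ncf1 from plasmacytoid-dendritic-like to granule-rich neutrophil-like cells. Leaving out cells with immunoglobulin UMIs, also chosen after seeing the data, moved stage levels by a factor of 0.937 to 1.04. With clusters, 4 of 5 subunits were still highest in a neutrophil stage, although Cybb and Rac2 then peaked in intermediate and Cyba in cycling cells, as the clusters gave no granule-rich stage. Over all classes taken from clusters, 72 of 80 levels left their counting interval and 23 moved by over 1.5-fold. Of 105 levels, the stricter gate moved 6, the median of the libraries 8 and the mean over cells 9 by that much. Of the 25 genes most like a subunit, 19 stayed on the list above 100 CPM and 20 with a pseudocount of 10 CPM. Small classes limit the low values: besides those named above, library 5 left out gave 7.61 CPM of Cybb in stem- and progenitor-like cells, and 11.8 CPM of Cybb, 16.9 CPM of Ncf1 and 10.2 CPM of Ncf4 in mast-like cells. Cybb was 1.42 CPM in NK-like cells without library 2 and 59.6 CPM in fibroblast-like cells without library 1.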
